A study of Mus musculus with 9 samples.

Results

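The BCL2 family decides at the mitochondrial surface whether a stressed cell lives or dies. Transcripts of 10 of its genes were followed in mouse bone marrow-derived mast cells (BMMCs). They were taken by gene symbol from the 47643 rows of the deposited count matrix and comprised 4 pro-survival genes (Bcl2, Bcl2l1, Mcl1, Bcl2a1b), 4 BH3-only death genes (Bcl2l11, Pmaip1, Bbc3, Bid) and 2 pore-forming effectors (Bax, Bak1). Of the 10, 9 were among the 11560 genes with a median above 1 CPM (counts scaled to a common library size) that entered the tests, and Bcl2a1b lay below that limit.

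RNA was sequenced from 3 groups of C57BL/6 BMMCs with 3 libraries each. Control cells received neither stimulus nor luteolin, IgE+BSA cells were sensitized with IgE against the hapten DNP and challenged with DNP-BSA, which crosslinks the IgE receptor, and IgE+BSA+Luteolin cells had the plant flavone luteolin in addition. The labels give 10 μM luteolin and 24 h. Whether luteolin came before or after the challenge, and whether the other groups had a vehicle, is not given consistently in the sources used here. Cells of all 3 groups were grown from bone marrow for at least 4 weeks in 30% WEHI-3-conditioned medium, a source of IL-3, so every group had a survival cytokine before treatment. Nothing states that the 3 libraries of a group came from separate cultures, and the p-values then measure only the spread between these libraries. Fewer cells of a type and less RNA per cell cannot be told apart in such bulk samples.

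Pro-survival BCL2 proteins hold the effectors BAX and BAK in check. BH3-only proteins, which are switched on by stress or by loss of growth factors, bind the pro-survival proteins and free or trigger the effectors, and the effectors then open the outer mitochondrial membrane so that cytochrome c escapes and caspases start. Mast cells are long-lived, and in culture their survival rests on IL-3 and stem cell factor, with MCL1, BCL-XL, BIM and PUMA among the proteins known to matter.

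The libraries held 9515004 (Control replicate 2) to 24605689 counts, and 3 counts corresponded to 0.122 to 0.315 CPM, a floor that covers counting error only. All 11 mast cell markers were above 1 CPM at the median, with sums of 55161 to 83836 CPM, while 7 lymphocyte markers summed to at most 1.26 CPM (Ms4a1, Cd3e and Cd8a at 0 throughout). Control replicate 1 stood apart. Over all tested genes its root mean square log2 distance was 0.72 to its own group, 0.56 to IgE+BSA and 0.43 to IgE+BSA+Luteolin. The 8 neutrophil markers, S100a8 and S100a9 among them, summed to 269.8 CPM in Control replicate 1, to 7.46 and 5.89 CPM in Control replicates 2 and 3, to 192 to 212 CPM in IgE+BSA and to 222 to 260.2 CPM in IgE+BSA+Luteolin. On this list Control replicates 2 and 3 were thus the libraries unlike the other 7, and with all libraries the part of this marker level in the differences from Control was not tested. Calls of the tested members and counts of the gene lists against Control are therefore given with and without that library.

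In stimulated cells luteolin went with lower transcripts of some members on both sides of the family, and with higher Bid and Bax. Of the 9 members tested, 7 passed an adjusted p of 0.05 between IgE+BSA+Luteolin and IgE+BSA in edgeR's quasi-likelihood test. The share over all genes was 40.0%. Pmaip1, Bbc3, Mcl1, Bcl2l11 and Bcl2 fell (5 members, against 21.9% of all genes lower), and Bid and Bax rose (2 members, against 18.1% of all genes higher). Bcl2l1 and Bak1 did not pass. The median log2 fold change over the 9 members was -0.24, and over all genes it was 0.02. By role, the medians were -0.24 for 3 pro-survival members, -1.25 for 4 BH3-only members and 0.12 for both effectors. Libraries of the groups did not overlap for 7 members, against 50.3% of all genes. The 9 intervals are drawn in the plot of fold changes.

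**Figure D1:**
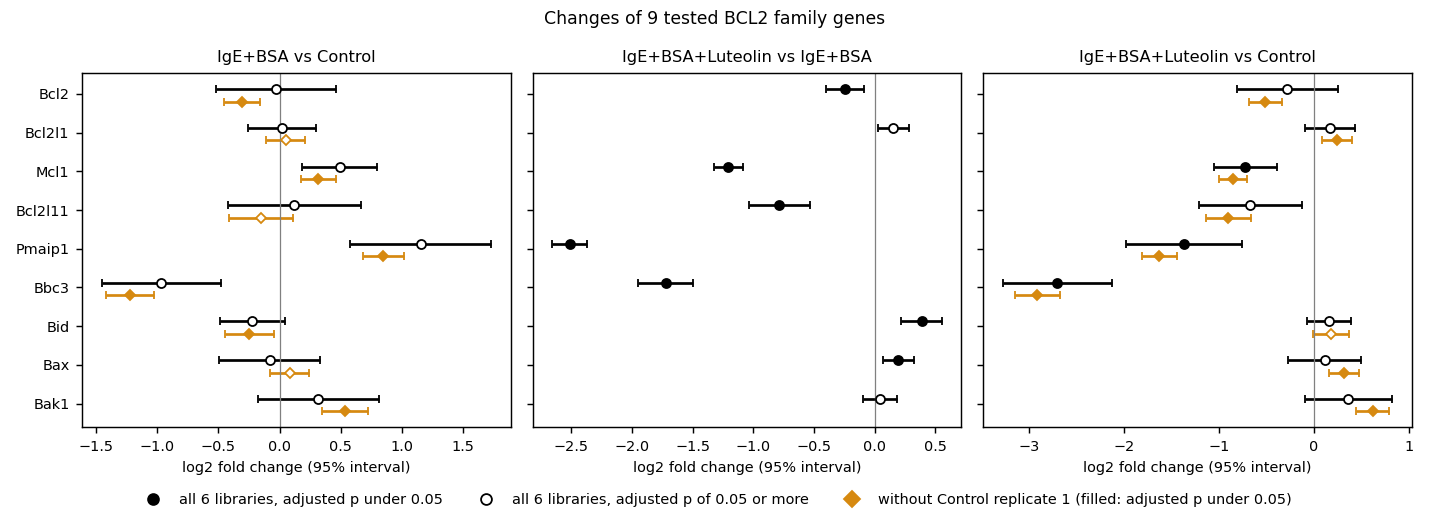
Log2 fold change (x axis, first group minus second) of the 9 tested members (y axis) in each comparison, with 95% intervals from edgeR. Circles use all 6 libraries and orange diamonds leave out Control replicate 1, with filled symbols for an adjusted p under 0.05. In the middle panel Pmaip1 (-2.51), Bbc3 (-1.72) and Mcl1 (-1.20) lie farthest from 0, and in the outer panels the circles have wide intervals that shrink in the diamonds.

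Mcl1 encodes a short-lived pro-survival protein that must be made continually, and it was the most abundant pro-survival transcript. The gene lies on chromosome 3 of GRCm38 from 95658788 to 95663176 (ENSMUSG00000038612). Its levels were 285, 391 and 370 CPM in Control, 484, 496 and 490 CPM in IgE+BSA, and 209, 203 and 225 CPM in IgE+BSA+Luteolin, for replicates 1, 2 and 3 in each group. The 3 luteolin libraries were below all other 6, and the IgE+BSA libraries were above all others. Against IgE+BSA the log2 fold change was -1.20 (standard error, SE, 0.06, edgeR's quasi-likelihood test, adjusted p = 1.52e-11), a 2.30-fold lower level. Against Control it was -0.72 (SE 0.14, same edgeR test, adjusted p = 0.0450), and -0.85 without Control replicate 1.

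Bcl2, the founding member and a more stable pro-survival protein, changed less. Its gene spans 106538178 to 106714274 on chromosome 1 (ENSMUSG00000057329). The libraries held 127, 221 and 226 CPM in Control, 193, 176 and 193 CPM in IgE+BSA, and 147, 148 and 179 CPM in IgE+BSA+Luteolin. The highest luteolin library was above the lowest IgE+BSA library, so these groups overlapped, and Control replicate 1 was the lowest of all 9. The log2 fold change between IgE+BSA+Luteolin and IgE+BSA was -0.24 (SE 0.07, edgeR's quasi-likelihood test, adjusted p = 0.0135). That call was lost with upper-quartile factors (-0.17), with library size alone (-0.13), with Control in the same fit, and without IgE+BSA replicate 1, IgE+BSA+Luteolin replicate 1 or IgE+BSA+Luteolin replicate 2. Exons of Bcl2 overlap those of D630008O14Rik on the opposite strand over 558 bp, and the strand setting of the counting is not given in the sources used here.

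Bcl2l1 encodes BCL-XL, a pro-survival protein that binds BIM, PUMA, BAX and BAK (chromosome 2, 152780668 to 152831728, ENSMUSG00000007659). It measured 100.4, 81.5 and 89.4 CPM in Control, 89.3, 96.4 and 89.6 CPM in IgE+BSA, and 97.4, 101.4 and 106.7 CPM in IgE+BSA+Luteolin. All 3 luteolin libraries were above the 3 IgE+BSA libraries by a narrow margin. The log2 fold change of 0.15 (95% interval 0.02 to 0.28) had an adjusted p of 0.0541 in edgeR's quasi-likelihood test. It passed the threshold with upper-quartile factors (0.23), with library size alone (0.27) and without IgE+BSA replicate 2 (0.19). It also passed with the replicate number as a block (0.15).

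Bcl2a1b belongs to the A1 genes, mouse copies that arose by duplication and encode an inducible pro-survival protein (chromosome 9, 89199209 to 89207827, ENSMUSG00000089929). Only 17, 0 and 14 counts fell on it in Control, 12, 13 and 24 in IgE+BSA and 21, 11 and 7 in IgE+BSA+Luteolin. The highest value was 1.17 CPM, and 0 counts in Control replicate 2 allow up to 0.315 CPM. In a fit of 23387 genes without the filter, its log2 fold changes were 0.64 (IgE+BSA against Control), -0.40 (IgE+BSA+Luteolin against IgE+BSA) and 0.25 (IgE+BSA+Luteolin against Control), none past the threshold. The coding sequences of the copies are nearly the same, as the opening 50 bases, with 6 of the 12 differing positions, show, read from the GENCODE transcripts of GRCm38 with capitals at the positions where the 3 copies are not all alike:
Bcl2a1a: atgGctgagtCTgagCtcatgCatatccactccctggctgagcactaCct
Bcl2a1b: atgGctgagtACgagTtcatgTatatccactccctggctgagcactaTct
Bcl2a1d: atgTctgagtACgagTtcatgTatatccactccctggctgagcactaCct
Over the 516 coding bases Bcl2a1b and Bcl2a1d differ at 6 positions (98.8% identity) and Bcl2a1b and Bcl2a1a at 11 (97.9%). Of the 100-base stretches of the Bcl2a1b transcript, 31.1% occur in another copy, so its counts are uncertain. Summed over the copies, the A1 genes had 2.03 to 4.04 CPM in Control, 4.25 to 4.50 CPM in IgE+BSA and 2.47 to 4.05 CPM in IgE+BSA+Luteolin. The IgE+BSA libraries were above the other 6, yet the summed log2 fold changes of 0.55 against Control and -0.42 for luteolin had adjusted p of 0.326 and 0.140 in edgeR's quasi-likelihood test.

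Among the BH3-only genes Pmaip1 had the largest change between IgE+BSA+Luteolin and IgE+BSA, and Bbc3 the largest between IgE+BSA+Luteolin and Control. Pmaip1 encodes NOXA, which binds MCL1 and A1 and promotes the breakdown of MCL1 (chromosome 18, ENSMUSG00000024521). Control held 40.8, 84.7 and 75.5 CPM, IgE+BSA 151, 139 and 156 CPM, and IgE+BSA+Luteolin 24.8, 27.2 and 26.0 CPM. The 3 groups did not overlap, with IgE+BSA highest and luteolin lowest. Between IgE+BSA+Luteolin and IgE+BSA the log2 fold change was -2.51 (SE 0.07, edgeR's quasi-likelihood test, adjusted p = 1.81e-14), a 5.71-fold lower level that ranked 22 of 11560 genes by p. Against Control luteolin-treated cells had -1.37 (SE 0.26, same edgeR test, adjusted p = 0.0418), and -1.63 without Control replicate 1.

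Bbc3 encodes PUMA, a BH3-only protein that can bind every pro-survival member (chromosome 7, 16308393 to 16318205, ENSMUSG00000002083). Its order differed from that of Pmaip1. Levels were 48.5, 87.7 and 75.3 CPM in Control, 37.4, 32.7 and 37.6 CPM in IgE+BSA, and 12.5, 10.6 and 9.47 CPM in IgE+BSA+Luteolin. Control was highest, IgE+BSA lay between and luteolin was lowest, with no overlap between any of the groups. The log2 fold change between IgE+BSA+Luteolin and IgE+BSA was -1.72 (SE 0.11, edgeR's quasi-likelihood test, adjusted p = 1.03e-09). Against Control it was -2.70 (SE 0.24, same edgeR test, adjusted p = 0.00615), a 6.50-fold lower level and rank 15 of all genes by p.

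Bcl2l11 encodes BIM, which accumulates when cytokines are withdrawn and is held down by ERK and AKT signalling (chromosome 2, 128126038 to 128162547, ENSMUSG00000027381). Control had 18.4, 31.6 and 32.0 CPM, IgE+BSA 31.9, 24.1 and 33.0 CPM, and IgE+BSA+Luteolin 17.7, 15.0 and 18.9 CPM. Luteolin libraries were below all IgE+BSA libraries, while Control replicate 1 lay within the luteolin range. The log2 fold change between IgE+BSA+Luteolin and IgE+BSA was -0.79 (SE 0.12, edgeR's quasi-likelihood test, adjusted p = 7.07e-05). Against Control it was -0.67 with an adjusted p of 0.157 in that test, and it fell by 0.90 on the log2 scale without Control replicate 1.

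Bid, which caspase-8 cleaves to link death receptors to mitochondria, was the only BH3-only member that rose with luteolin against IgE+BSA (chromosome 6, 120891930 to 120916853, ENSMUSG00000004446). It measured 35.4, 35.1 and 32.9 CPM in Control, 27.6, 31.7 and 29.3 CPM in IgE+BSA, and 37.9, 39.3 and 38.2 CPM in IgE+BSA+Luteolin. The luteolin libraries were above all others and the IgE+BSA libraries below all others, in a narrow range. Against IgE+BSA the log2 fold change was 0.39 (SE 0.08, edgeR's quasi-likelihood test, adjusted p = 0.00102), or 1.31-fold. Bid shares 628 bp of exon with Bcl2l13 on the opposite strand.

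Bax and Bak1, the genes of the pore-forming effectors, had small changes between IgE+BSA+Luteolin and IgE+BSA. Bax (chromosome 7, 45461697 to 45466898, ENSMUSG00000003873) had 186, 133 and 121 CPM in Control, 141, 146 and 131 CPM in IgE+BSA, and 157, 166 and 153 CPM in IgE+BSA+Luteolin. Control replicate 1 was the highest of all libraries, and the luteolin libraries were above the IgE+BSA libraries. The log2 fold change of 0.19 (SE 0.06, edgeR's quasi-likelihood test, adjusted p = 0.0168) between IgE+BSA+Luteolin and IgE+BSA was lost with Control in the fit and without replicate 1 or 3 of IgE+BSA or replicate 1 or 2 of IgE+BSA+Luteolin. Bak1 (chromosome 17, 27019810 to 27029009, ENSMUSG00000057789) had 72.5, 42.0 and 47.9 CPM in Control, 71.0, 69.5 and 63.0 CPM in IgE+BSA, and 69.0, 70.9 and 69.4 CPM in IgE+BSA+Luteolin. With luteolin its log2 fold change was 0.04 (95% interval -0.09 to 0.18) against IgE+BSA. Control replicates 2 and 3 were the lowest of the 9 libraries, and Control replicate 1 the highest, and without the latter Bak1 was called higher in both groups than in Control. Exons of Bak1 overlap Ggnbp1 on the opposite strand over 614 bp and those of Bax overlap Gm45808 on the same strand over 192 bp.

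**Figure D2:**
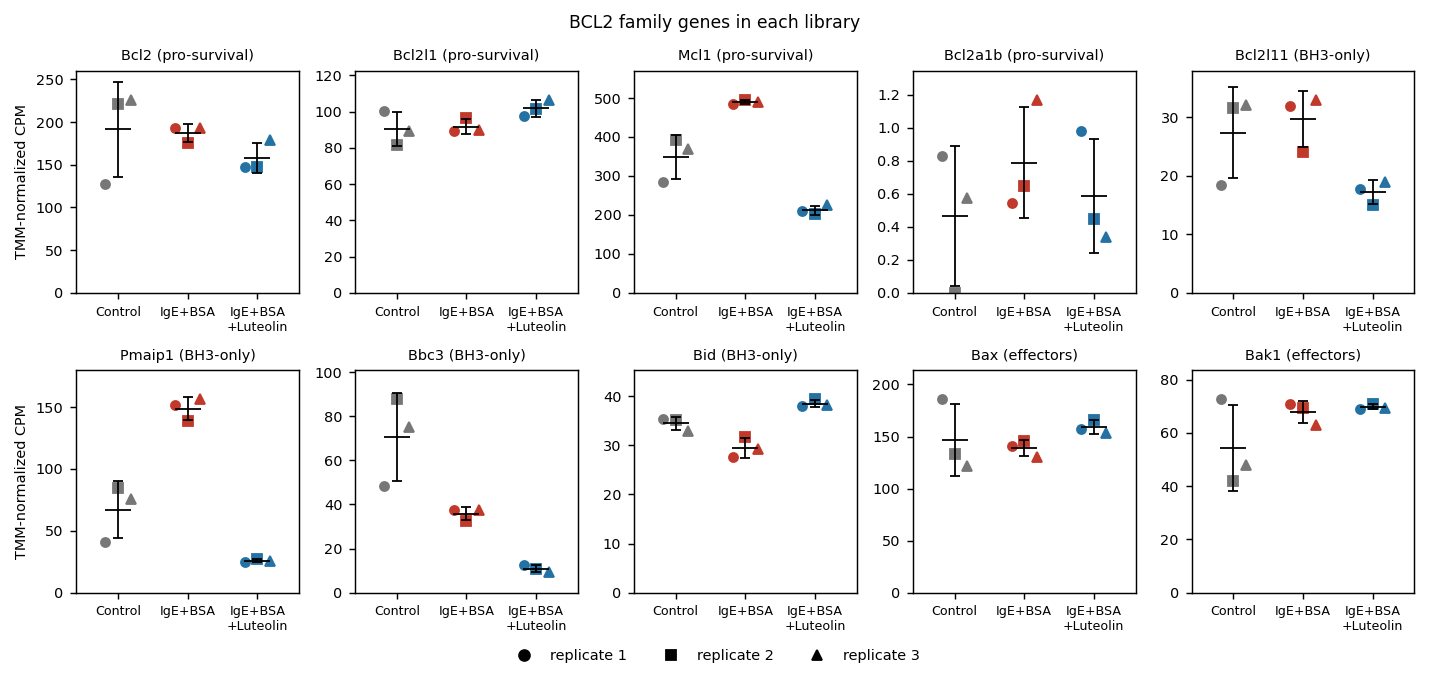
TMM-normalized CPM (y axis, linear from 0) of each of the 10 members in the 3 groups (x axis), with a symbol for each replicate number and bars for the mean and SD of 3 libraries. Pmaip1 and Mcl1 are highest in IgE+BSA and lowest in IgE+BSA+Luteolin, Bbc3 steps down from Control, and Control replicate 1 (circle) lies away from its group in most panels.

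Neutrophil, mast cell, basophil or eosinophil, and erythroid or megakaryocyte marker sums were all higher in IgE+BSA+Luteolin than in IgE+BSA without overlap. They stood at 222 to 260.2 against 192 to 212 CPM (8 neutrophil markers), at 70520 to 81714 against 58997 to 65832 CPM (11 mast cell markers), at 949.9 to 1067 against 855 to 936 CPM (6 basophil or eosinophil markers) and at 1866 to 1969.6 against 1738 to 1818 CPM (6 erythroid or megakaryocyte markers). The basophil or eosinophil sum was 1246 CPM in Control replicate 1 and 708 and 654 CPM in Control replicates 2 and 3. Their part in these differences was not tested. Mcl1, Bcl2l11, Pmaip1, Bbc3 and Bid kept their calls between IgE+BSA+Luteolin and IgE+BSA under every alternative run, with each replicate left out included.

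Without luteolin, Pmaip1 and Mcl1 were higher in every IgE+BSA library than in any Control library, and Bbc3 and Bid were lower. Between IgE+BSA and Control 0 of the 9 members passed the threshold in edgeR's quasi-likelihood test, against 3.27% of all genes (2.25% higher and 1.02% lower). At an unadjusted p under 0.05 there were 3 members and 2362 of all genes. DESeq2 called 3 members (10.6% of all genes), Pmaip1 and Mcl1 higher and Bbc3 lower, and limma called 0. Pmaip1 was at 67.0 ± 23.2 CPM (SD, n = 3) in Control and 148.8 ± 9.14 CPM (SD, n = 3) in IgE+BSA, a log2 fold change of 1.16 (95% interval 0.58 to 1.73, adjusted p = 0.0569 in edgeR's test). Bbc3 was at 70.5 ± 20.0 CPM and 35.9 ± 2.77 CPM (SD, n = 3 each), a log2 fold change of -0.97 (95% interval -1.46 to -0.48, adjusted p = 0.0577 in edgeR's test). Mcl1 had 0.49 (95% interval 0.18 to 0.80, adjusted p = 0.0992 in edgeR's test). These 3 and Bid, 4 members, had groups that did not overlap, against 28.7% of all genes. The sum of 8 macrophage or monocyte markers was also higher in IgE+BSA (597 to 603 CPM) and IgE+BSA+Luteolin (600.0 to 616 CPM) than in any Control library (512 to 540.0 CPM), and its part in the differences from Control was not tested. The other 6 members tested had log2 fold changes from -0.22 (Bid) to 0.32 (Bak1), and the median over the 9 members was 0.02, as over all genes.

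Without Control replicate 1, 6 members passed in the same comparison, against 45.0% of all genes. Pmaip1 (0.85), Bak1 (0.53) and Mcl1 (0.32) were then higher, and Bbc3 (-1.22), Bcl2 (-0.31) and Bid (-0.25) lower, on the log2 scale. Bcl2l11 turned from 0.12 to -0.15 and Bax from -0.08 to 0.08, neither past the threshold. This fit sets IgE+BSA against the Control libraries with the low neutrophil marker sum, and stimulation and that marker level cannot be told apart in it.

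Between IgE+BSA+Luteolin and Control, 3 of the 9 members passed, all lower (Bbc3, Pmaip1 and Mcl1), against 3.04% of all genes (2.75% lower and 0.285% higher). These comparisons share their libraries with the others and are not independent of them. Groups did not overlap for 4 members, these 3 and Bid, against 28.5% of all genes. The median log2 fold change of the 9 members was -0.28, and that of all genes 0.01. Without Control replicate 1, 8 members passed, against 60.0% of all genes: Bbc3 (-2.91), Pmaip1 (-1.63), Bcl2l11 (-0.90), Mcl1 (-0.85) and Bcl2 (-0.51) lower, and Bak1 (0.62), Bax (0.31) and Bcl2l1 (0.24) higher. Treatment and the neutrophil marker level, 222 to 260.2 CPM against 7.46 and 5.89 CPM, cannot be told apart in this fit either. With any other single library left out, Mcl1 and Pmaip1 lost their calls, and Bbc3 lost its call without IgE+BSA+Luteolin replicate 1 or 2 (adjusted p = 0.0645 and 0.0675 in edgeR's test).

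The Control libraries differed among themselves in members of every role. Mean levels in Control replicates 2 and 3 were 1.96 times (Pmaip1), 1.76 times (Bcl2), 1.73 times (Bcl2l11), 1.68 times (Bbc3) and 1.34 times (Mcl1) those in Control replicate 1, and 0.961 times for Bid, while Bak1 and Bax were 1.61 and 1.46 times higher in Control replicate 1. Bmf, a further BH3-only gene picked here after its values were seen, had 4.57 CPM in Control replicate 1, 19.2 and 15.9 CPM in Control replicates 2 and 3, 1.85 to 3.46 CPM in IgE+BSA and 3.14 to 3.76 CPM in IgE+BSA+Luteolin. Its log2 fold change between IgE+BSA and Control was -2.21 (adjusted p = 0.0735 in edgeR's test), and -2.67 without Control replicate 1 (adjusted p = 3.12e-07 in that test).

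**Figure D3:**
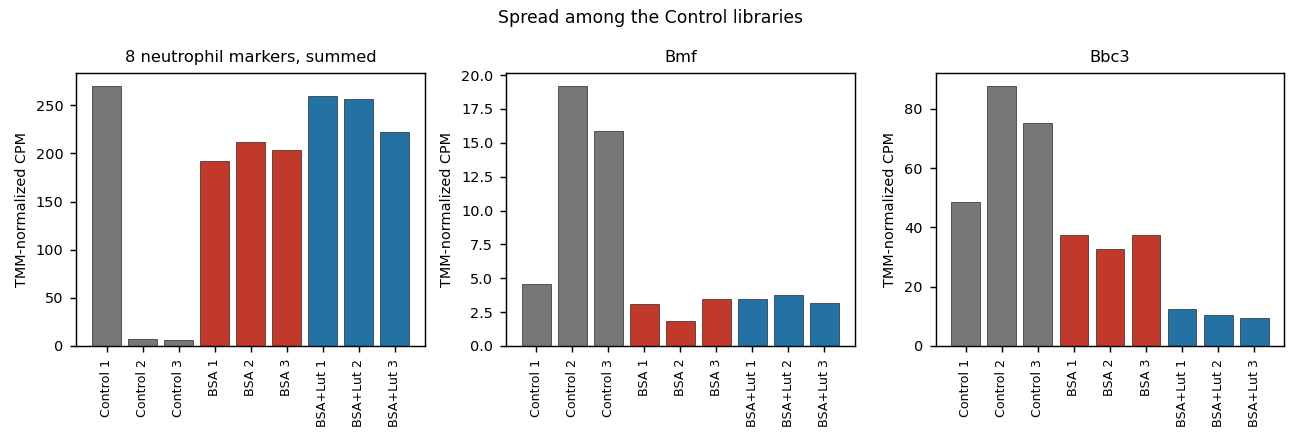
TMM-normalized CPM (y axes, from 0) in each of the 9 libraries (x axes) for the sum of 8 neutrophil markers, for Bmf and for Bbc3, with bars coloured by group. Control replicate 1 has 269.8 CPM of neutrophil markers, near the 6 stimulated libraries, while Control replicates 2 and 3 have 7.46 and 5.89 CPM and the highest Bmf and Bbc3.

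Levels of different genes were compared per length, as CPM per kilobase of merged exon (RPKM). In IgE+BSA the order was Mcl1 (143 RPKM), Bax (88.3), Pmaip1 (54.4), Bak1 (28.2), Bcl2 (20.4), Bcl2l1 (20.0), Bbc3 (16.9), Bid (8.32), Bcl2l11 (3.69) and Bcl2a1b (0.964). Neighbours did not overlap there except Bcl2 and Bcl2l1. In IgE+BSA+Luteolin Bax led at 100.8 RPKM and Mcl1 was next at 62.1 RPKM, without overlap, and Pmaip1 (9.51 RPKM) had moved below Bak1, Bcl2l1, Bcl2 and Bid. No neighbours overlapped in that group. In Control, Mcl1 (102 RPKM) and Bax (93.1 RPKM) overlapped, as did the run from Bbc3 (33.2 RPKM) through Pmaip1, Bak1, Bcl2 and Bcl2l1 (19.7 RPKM) neighbour by neighbour. The order depended on the length used. With the longest transcript, Bax led in Control and Mcl1 was next, and Bcl2l1 moved to rank 4 in Control (35.2 RPKM) and in IgE+BSA (35.7 RPKM), ahead of Bak1 (28.4 RPKM) and Bcl2 (26.0 RPKM) in the latter, and to rank 3 in IgE+BSA+Luteolin.

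Summed per-length levels of the 4 pro-survival members were 143.3 ± 20.1 RPKM in Control, 184.8 ± 1.72 RPKM in IgE+BSA and 102.3 ± 5.83 RPKM in IgE+BSA+Luteolin (SD, n = 3 each). The BH3-only sum was 70.8 ± 18.7, 83.4 ± 4.76 and 27.6 ± 0.451 RPKM in the same order, and the effector sum 116 ± 28.1, 116 ± 6.56 and 129.8 ± 4.59 RPKM. Luteolin libraries were lowest in the pro-survival and BH3-only sums alike. Whether the balance was higher or lower with luteolin differed with the death genes counted. Pro-survival over BH3-only transcripts was 2.40, 1.82 and 2.01 in Control, 2.16, 2.38 and 2.13 in IgE+BSA, and 3.58, 3.52 and 4.02 in IgE+BSA+Luteolin, the last above all others. Over all 6 pro-death members it was 0.607, 0.831 and 0.885 in Control, 0.898, 0.933 and 0.945 in IgE+BSA, and 0.637, 0.603 and 0.712 in IgE+BSA+Luteolin, where the luteolin libraries lay below all IgE+BSA libraries and Control replicate 1 lay within their range. Transcript sums say nothing of protein amounts, and no test was applied to them.

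**Figure D4:**
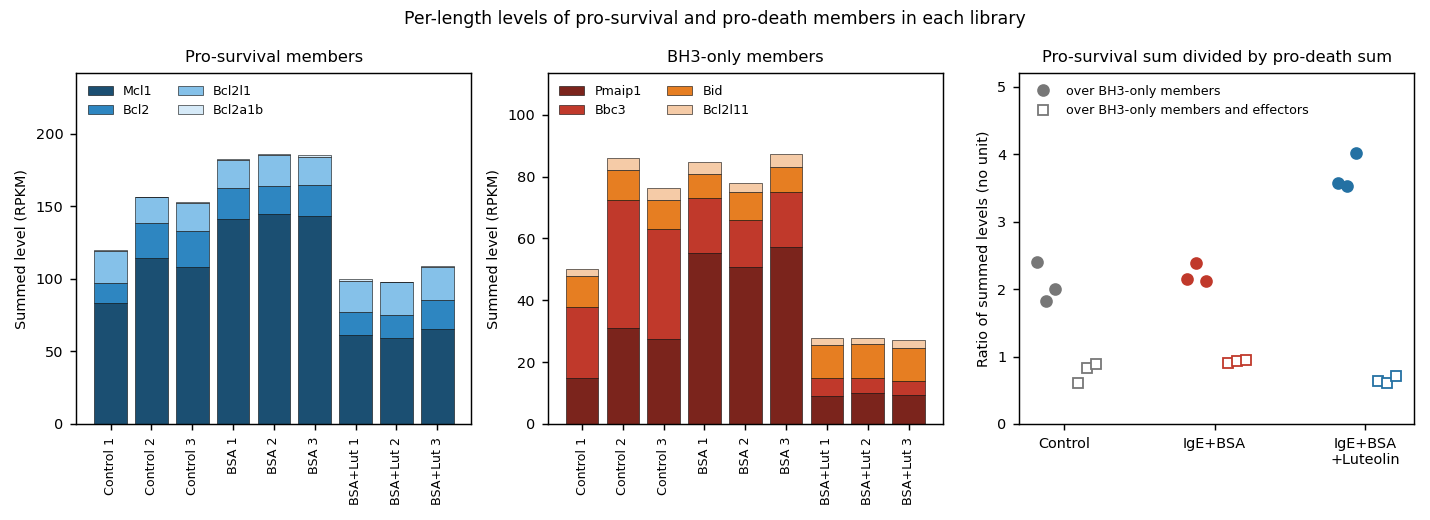
Per-length levels (RPKM, y axes from 0) of the pro-survival and the BH3-only members stacked by gene for each library (x axes), and the ratio of the pro-survival sum to the pro-death sum by group. Mcl1 and Pmaip1 make up most of the IgE+BSA bars. The ratio over BH3-only members is 3.52 to 4.02 in IgE+BSA+Luteolin, above all other libraries, while the ratio over BH3-only members and effectors is 0.603 to 0.712 there, below IgE+BSA.

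Within each sum the make-up shifted. Mcl1 was 71.1% ± 1.95 of the pro-survival sum in Control, 77.6% ± 0.342 in IgE+BSA and 60.7% ± 0.558 in IgE+BSA+Luteolin (SD, n = 3 each). Pmaip1 was 34.0% ± 3.60 of the BH3-only sum in Control, 65.3% ± 0.288 in IgE+BSA and 34.4% ± 1.65 in IgE+BSA+Luteolin. Bbc3 held the largest BH3-only share in Control, at 46.7% ± 1.17, and 20.3% ± 0.520 and 18.5% ± 2.42 in the stimulated groups without and with luteolin. Bid, at 14.5% ± 4.70 and 10.0% ± 1.24 in the groups without luteolin, held the largest share with it, at 39.3% ± 0.816. The sums, shares and ratios hold the listed members only. They leave out Bad, a further BH3-only gene, at 20.7 CPM in IgE+BSA and 30.0 CPM in IgE+BSA+Luteolin. Bmf and Bik, also left out, did not pass the threshold between these groups. NOXA and MCL1 bind each other, and the log2 ratio of their transcripts per length, Mcl1 over Pmaip1, was 2.11 ± 0.32 in Control, 1.40 ± 0.10 in IgE+BSA and 2.71 ± 0.11 in IgE+BSA+Luteolin. That of Bcl2l1 over Bbc3 was -0.71 ± 0.59, 0.25 ± 0.18 and 2.13 ± 0.27 in the same order.

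Further relatives of the family were mostly low or not called. Of 5 further pro-survival relatives, 3 were tested (Bcl2l2, Bcl2a1a, Bcl2a1d) and 0 passed in any of the 3 comparisons by edgeR, with or without Control replicate 1. The shares of all genes called were 3.27% in IgE+BSA against Control, 40.0% in IgE+BSA+Luteolin against IgE+BSA and 3.04% in IgE+BSA+Luteolin against Control, and 45.0% and 60.0% against Control without that library. Of 6 further pro-death relatives, 3 were tested, and 1 passed with luteolin against IgE+BSA: Bad, a BH3-only gene silenced by AKT signalling at the protein level, rose by a log2 fold change of 0.54 (SE 0.09, edgeR's quasi-likelihood test, adjusted p = 0.000183). Against Control 0 of the pro-death relatives passed in the 6 libraries compared, and without Control replicate 1 Bmf was lower in both comparisons and Bad and Bik higher with luteolin. With all 9 libraries in 1 fit, 1 was lower in IgE+BSA against Control, where 1105 of 11560 genes passed. In that fit 1 was higher and 1 lower in IgE+BSA+Luteolin against Control, where 1251 passed. Hrk and Bcl2l10 had 0 counts in all 9 libraries and Bok had 1.

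Downstream of the mitochondria the changes were small. Of 14 genes of the apoptosome, caspases and inhibitors, 3 rose and 2 fell between IgE+BSA+Luteolin and IgE+BSA, where 40.0% of all genes passed, with log2 fold changes of 0.48 for Casp9 (the initiator caspase), 0.26 for Aifm1 and 0.21 for Parp1, a caspase substrate. Of 8 outer membrane partners of BAX and BAK, 2 rose, Vdac3 (0.23) and Tomm22 (0.19). Of 7 tested genes that set the turnover or placement of MCL1 and BIM proteins, 2 rose and 3 fell, among them Bag3 (-0.49), the MCL1 deubiquitinase gene Usp9x (-0.48), the MCL1 ubiquitin ligase gene Huwe1 (-0.32) and Dynll1 (0.22). With all 9 libraries in 1 fit, the calls with luteolin were 1 higher and 0 lower for the apoptosome list, 0 for the outer membrane list, and 0 higher and 1 lower for the turnover list, and the share of all genes called was 9.46%. Against Control, in both comparisons, 0 genes of these lists passed in edgeR's test on the 6 libraries compared. With all 9 libraries in 1 fit, IgE+BSA against Control gave 1 higher on the apoptosome list, where 1105 of 11560 genes passed. In that fit IgE+BSA+Luteolin against Control gave 1 higher on the outer membrane list and 1 lower on the turnover list, where 1251 passed. Without Control replicate 1, IgE+BSA against Control gave 5 higher and 2 lower (apoptosome), 5 higher and 0 lower (outer membrane) and 0 higher and 1 lower (turnover), and IgE+BSA+Luteolin against Control gave 6 and 2, 6 and 0, and 2 and 3. The shares of all genes called in those fits were 45.0% and 60.0%.

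The next lists hold known targets of factors that also act on BH3-only genes, and no test set these lists against the others. Pmaip1 and Bbc3 are textbook targets of p53. Of 14 genes of p53 and its targets, 4 rose in IgE+BSA against Control (Btg2 1.72, Plk2 1.28, Sesn2 0.90 and Cdkn1a 0.88 on the log2 scale), against 3.27% of all genes called, and with luteolin 9 fell and 2 rose, against 40.0%, with a list median of -0.35. The largest falls were Plk2 (-2.82), Btg2 (-1.90), Sesn2 (-1.30) and Gadd45a (-1.22), of which Plk2 and Btg2 are also immediate early genes and Sesn2 and Gadd45a also stress-induced genes. Bbc3 and Bcl2l11 are known targets of FOXO factors, which growth factor signalling keeps out of the nucleus. Of 10 FOXO factors and targets, 2 fell in IgE+BSA against Control, Pik3ip1 (-1.15) and Txnip (-1.09), where 3.27% of all genes passed. With luteolin 6 fell and 2 rose against IgE+BSA (40.0% of all genes called), led by Bcl6 (-2.33), Klf2 (-2.15), Ccng2 (-0.76) and Txnip (-0.62), and 6 fell and 0 rose against Control (3.04% of all genes called), led by Bcl6 (-2.65), Txnip (-1.72), Klf2 (-1.71) and Cdkn1b (-1.48). The list median was -0.45, -0.48 and -1.04 in the 3 comparisons. Without Control replicate 1, 7 fell and 1 rose in IgE+BSA against Control (45.0% of all genes called), and 10 fell in IgE+BSA+Luteolin against Control (60.0% called). On the p53 list 0 of 14 genes passed between IgE+BSA+Luteolin and Control in the fit of their 6 libraries, and 1 rose and 10 fell without Control replicate 1, where 60.0% of all genes passed. Between IgE+BSA and Control 6 rose and 3 fell on that list without the same library, where 45.0% passed. With Control in the same fit, luteolin against IgE+BSA gave 6 lower and 0 higher on the p53 list and 3 lower and 1 higher on the FOXO list, where 9.46% of all genes passed. That fit of all 9 libraries gave 1 lower and 6 higher (p53) and 4 lower and 1 higher (FOXO) in IgE+BSA against Control, where 1105 of 11560 genes passed. In IgE+BSA+Luteolin against Control it gave 3 lower and 0 higher (p53) and 6 lower and 0 higher (FOXO), where 1251 passed. Sesn1 is on both lists, and Apaf1 is on the p53 and the apoptosome lists.

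Of 13 genes of survival receptor signalling, which carry the IL-3 and KIT signals, 2 rose and 5 fell with luteolin against IgE+BSA, where 40.0% of all genes passed. Pim3, a survival kinase gene, had -0.78, Pim2 had 0.34, Stat5a had 0.24 and Csf2rb, the shared receptor chain, had -0.23 on the log2 scale. With all 9 libraries in 1 fit 0 of these 13 passed, against 9.46% of all genes. Against Control 0 of the 13 passed by edgeR in either comparison, and without Control replicate 1 there were 3 higher and 4 lower in each, against 45.0% of all genes called with IgE+BSA and 60.0% with luteolin. Pim3 was among the higher ones in both of those fits, by 2.07 in IgE+BSA and by 1.33 in IgE+BSA+Luteolin on the log2 scale.

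**Figure D5:**
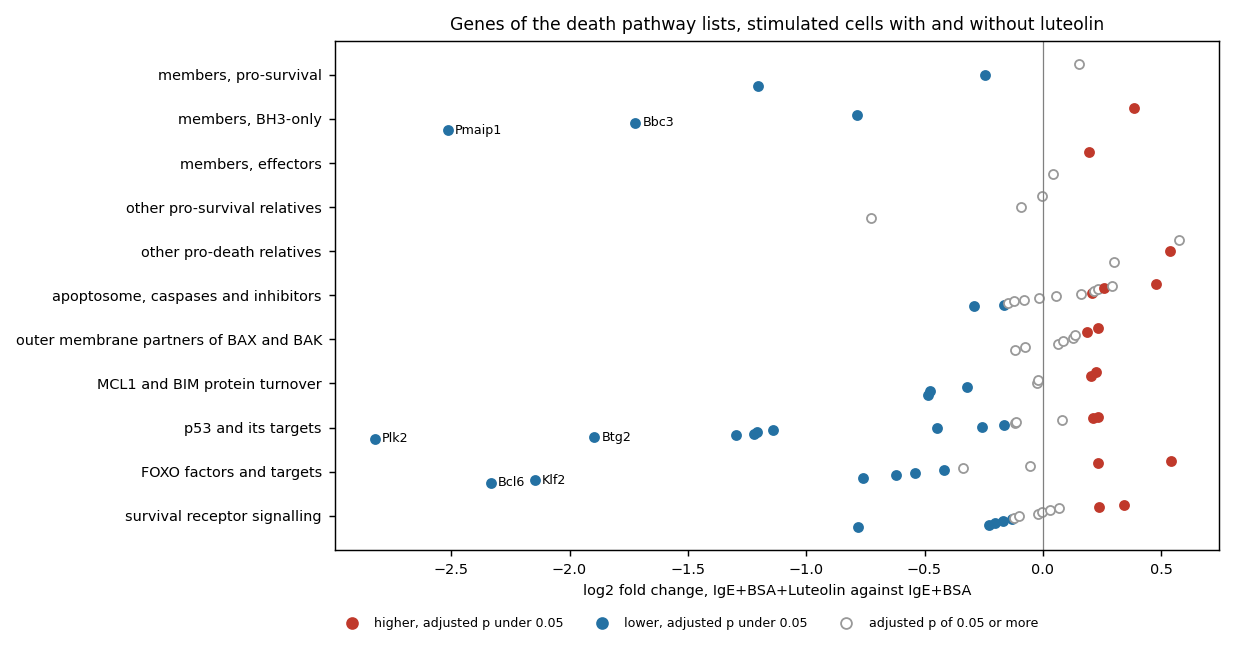
Log2 fold change between IgE+BSA+Luteolin and IgE+BSA (x axis) of the tested genes of each list (y axis), with filled points for an adjusted p under 0.05 and names beside points beyond 1.5 in size. The BH3-only members, p53 targets and FOXO targets reach -2.51, -2.82 and -2.33, while the genes of the apoptosome and the outer membrane lie within 0.5 of 0.

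Promoters of the members are shown because Bbc3, Bcl2l11 and Mcl1 fell together with luteolin. No promoter was at hand for Pmaip1, the member with the largest fall with luteolin. For the other 9 of the 10 members, RefSeq promoters of GRCm38.p6, from 250 bases before to 50 after each start, gave 14 windows. They were searched on both strands for FOXO (TGTTTAC), EGR (GCGNGGGCG), AP-1 (TGANTCA), CRE (TGACGTCA), E-box (CACGTG) and STAT (TTCNNNGAA) letters and for NF-kB and p53 sites by name. Capitals mark matches, which did not overlap each other in the windows printed. They are Bcl2l11 at chr2:128125788-128126087 (+), Bbc3 at chr7:16310011-16310310 (+) and Mcl1 at chr3:95658471-95658770 (+):
Bcl2l11: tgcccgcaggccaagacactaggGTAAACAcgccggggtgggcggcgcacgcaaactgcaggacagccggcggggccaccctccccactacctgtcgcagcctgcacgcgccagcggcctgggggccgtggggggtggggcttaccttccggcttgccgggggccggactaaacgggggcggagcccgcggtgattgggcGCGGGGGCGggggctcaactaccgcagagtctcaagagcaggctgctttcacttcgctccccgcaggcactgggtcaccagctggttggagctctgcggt
Bbc3: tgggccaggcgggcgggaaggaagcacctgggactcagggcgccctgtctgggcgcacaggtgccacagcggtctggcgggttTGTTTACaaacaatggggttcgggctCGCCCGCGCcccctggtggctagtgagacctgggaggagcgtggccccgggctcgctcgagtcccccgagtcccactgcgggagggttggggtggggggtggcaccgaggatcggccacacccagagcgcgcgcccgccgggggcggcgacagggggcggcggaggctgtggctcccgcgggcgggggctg
Mcl1: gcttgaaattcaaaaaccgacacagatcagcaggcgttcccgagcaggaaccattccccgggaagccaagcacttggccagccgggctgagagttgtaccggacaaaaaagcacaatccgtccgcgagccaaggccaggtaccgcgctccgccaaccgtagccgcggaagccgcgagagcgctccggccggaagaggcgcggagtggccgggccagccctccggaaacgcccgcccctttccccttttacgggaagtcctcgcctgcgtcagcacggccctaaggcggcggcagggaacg
Counted from the start site, the FOXO letters lie at -227 in the printed Bcl2l11 window and at -167 in this Bbc3 window. Of 32851 promoters 3.65% hold them. The other Bcl2l11 window, chr2:128127325-128127624, has no match of any kind, and the 2 windows printed for these genes are those with FOXO letters. Bbc3 has 3 windows. The shares are per window, so a gene with several windows has more places for a match. EGR letters, in 5.55% of promoters, lie at -50 in Bcl2l11 and at -141 in this Bbc3 window. AP-1 letters are in 7.81% of promoters, CRE letters in 1.79%, STAT letters in 8.30%, NF-kB letters in 4.51% and the p53 half-site pair in 0.0731%. None of the letters searched occurs in the window of Mcl1, Bcl2, Bid or Bak1. E-box letters (7.15% of promoters) lie at -9 and at 36 in Bax, which rose with luteolin, and at -64 in another window of Bbc3, which fell. A further Bbc3 window has EGR letters at -49 and overlapping NF-kB letters at -137 and -136. A window of Bcl2l1 has NF-kB letters at -242, and that of Bcl2a1b has AP-1 letters at -164 and EGR letters at -82. These matches describe the letters only.

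For each member called in any comparison, the 3 protein-coding genes of 10822 whose centred log2 levels lay nearest over the 9 libraries were found by root mean square difference. Mcl1 was nearest to Il10ra (0.06), Rlim and Btg1, and Pmaip1 to Sgk1 (0.11), Klf6 and Frmd4b. Bbc3 was nearest to Zscan2 (0.15), Tsc22d3 and Med18, and Bcl2l11 to Zfp608 (0.09), Nktr and Trim12a. Bcl2 had Gpr34 (0.04), Cd2ap and Tmem131, Bax had Clic1 (0.04), Mpv17l2 and Cops5, and Bid had Atp8b5 (0.05), Tmem19 and Ncbp2. The members' own SD over the 9 libraries was 1.06 for Pmaip1, 1.12 for Bbc3, 0.51 for Mcl1 and 0.17 for Bid on the log2 scale.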

How the data were processed

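RNA of 9 BMMC libraries, 3 per group, was sequenced from TruSeq stranded mRNA libraries. According to the submitters' processing notes, reads were cleaned in HTStream and mapped by STAR 2.7.0f on mm10 (GRCm38), and the authors deposited raw counts per Ensembl gene. The counting program's settings, annotation release and strand setting are not given in the sources used here. Groups and replicate numbers came from the sample labels.

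Symbols were matched for 47224 of the 47643 rows. The deposited counts went through the quasi-likelihood test of edgeR 4.0.16 (R 4.3.3, TMM factors, two-sided) on the 6 libraries of each comparison. Genes needed a median CPM above 1, which left 11560, and p-values were adjusted over these by Benjamini and Hochberg with a threshold of 0.05. Alternatives were DESeq2 1.42.0, limma 3.58.1, other scalings, no filter, all 9 libraries in 1 fit, a replicate block and each replicate left out. The method was also tested on simulated counts, in which no library stood apart from its group as Control replicate 1 did. CPM is TMM-normalized, and RPKM divides it by the merged exon length of GENCODE genes. Bcl2a1b, below the filter, was fitted without it. No pair of replicates differed by as little as sampling noise (lowest chi-square per degree of freedom 3.82).

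The members and gene lists were chosen with earlier results of these data known. All 10 members are named, with at most 4 genes past the threshold per other list and comparison (largest change) and the 3 nearest genes per called member. A gene that this rule picks is not reported here. Bmf and the neutrophil markers were singled out after their values were seen.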

Additional observations from a re-analysis of the deposited data

How the results depend on the processing

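Of 381 recomputed log2 fold changes of members, 313 kept their direction and side of the threshold, 26 lost and 25 gained a call, and 17 changed sign, none of these past the threshold in either fit. Between IgE+BSA and Control, Bcl2 had 0.012 by limma, 0.029 with no filter and 0.010 with the replicate block. Bcl2l1 had -0.020 by DESeq2, -0.019 with DESeq2 size factors, -0.084 with upper-quartile factors and -0.15 with library size alone, where Bcl2l11 had -0.066. With a replicate left out, the changes in that comparison ran from -0.31 to 0.11 for Bcl2, -0.057 to 0.049 for Bcl2l1, -0.15 to 0.26 for Bcl2l11 and -0.21 to 0.083 for Bax. They ran from -0.0071 to 0.077 for Bak1 between IgE+BSA+Luteolin and IgE+BSA, and from -0.0069 to 0.31 for Bax between IgE+BSA+Luteolin and Control.

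Members called between IgE+BSA and Control numbered 0, and 3 by DESeq2, 3 with all 9 libraries in 1 fit, 2 with no filter, 1 with upper-quartile factors and 1 with library size alone, with 0 to 6 when a replicate was left out. Between IgE+BSA+Luteolin and IgE+BSA they numbered 5 to 8, and between IgE+BSA+Luteolin and Control 0 to 8, with a replicate left out. Over all genes, IgE+BSA against Control gave 378 calls, 1227 by DESeq2, 604 with no filter, 1105 with all 9 libraries and 90 to 5207 with a replicate left out. IgE+BSA+Luteolin against Control gave 351, 1379, 793, 1251 and 2 to 6931. In both, the highest count was the one without Control replicate 1, and leaving out any other library lowered the count by more than 1.5 times. Against IgE+BSA luteolin gave 4624 calls, and 1093 with all 9 libraries, where the spread of Control enters the estimate. The survival ratio over all 6 pro-death members in IgE+BSA was 0.834 with the longest transcript. The cause of these shifts was not tested.

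Same-numbered libraries did not all deviate together (lowest correlations -0.26, -0.02 and -0.12 in the 3 comparisons). Their mean correlations were -0.02, 0.14 and 0.12, against 0.01, -0.07 and -0.07 for libraries of different number. Whether they share more than a number was not tested. With the replicate block 144, 5582 and 212 genes and 0, 8 and 2 members were called in IgE+BSA against Control, IgE+BSA+Luteolin against IgE+BSA and IgE+BSA+Luteolin against Control. Under the block Bcl2l1 gained a call with luteolin against IgE+BSA (0.15) and Mcl1 lost its call against Control (-0.71). The block gave 2 higher on the p53 list and 1 lower on the FOXO list in IgE+BSA against Control. In IgE+BSA+Luteolin against Control it gave 3 lower on the FOXO list.

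Library size alone moved the median log2 fold change of all genes to -0.15 (IgE+BSA against Control) and 0.13 (IgE+BSA+Luteolin against IgE+BSA). The lower share of calls was 31.2% in the former and became 47.6% with upper-quartile factors and 62.7% with library size alone, and in the latter it went from 54.6% to 38.2% and 31.4%. Control comparisons are limited by the spread of 3 libraries, and Bcl2a1b by its 0 to 24 counts a library.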
